A study of Arabidopsis thaliana with 9 samples.

Results

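The 200 genes with the brightest array signal in the wild-type root tip were described here across 3 genotypes of Arabidopsis thaliana. They were chosen by their mean log2 signal over the 3 wild-type arrays, from 13217 nuclear genes that had a probe set of their own, with the brightest probe set for each gene. The wild-type levels therefore describe the choice and test nothing. Members made up 1.51% of those genes. They are not the 200 brightest transcripts of the whole array: 461 probe sets were at least as bright as the last member, of which 217 were not listed in the gene annotation and 42 matched several genes. All 200 were measured by a probe set with the plain suffix "_at", and none had a second listed probe set.

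The tissue was the terminal 0.5 mm of primary roots of seedlings 4 days after germination, cut by hand, with about 200 tips per replicate and 3 replicates per genotype. The wild-type background was Col er-2, and the triple mutant carried the alleles cna-2, phb-13 and phv-11. The quadruple mutant carried rev-6 in addition, and seedlings with radial cotyledons were taken as its homozygotes from a population that segregated. Its PHV allele is phv-11 in some labels and phv-6 in others. Only the titles of the quadruple mutant write phb1, which is read here as phb-13. CNA, PHB, PHV and REV encode HD-ZIP III transcription factors, and no transgene or treatment is named. The labels do not say whether the mutants also carry er-2, or how seedlings were divided between replicates, so the spread between replicates may be partly technical.

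The tip of a root holds the meristem, where cells divide and grow before they elongate, and the root cap that covers it. Dividing and growing cells need a steady supply of ribosomes, folded proteins, histones and energy. HD-ZIP III factors are known for setting organ polarity and for patterning the vascular tissue of the root.

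Of the 200 members, 18 had a gene name in the annotation and 182 were listed by locus tag alone, which left their functions unnamed here. The share with a name was 9%, against 12% of all nuclear genes represented. Only the named members are given a role in what follows, and the others appear under their locus tags. The fixed tissue markers were thinly covered. BBM, a meristem gene, stood at 7.75 ± 0.10 in wild type (log2 signal, SD, n = 3), above 72.9% of all probe sets. AGL42, expressed in the quiescent centre, stood at 5.89 ± 0.20, above 50.6%. The root-hair expansins EXPA7 and EXPA18, which mark an older zone of the root, stood at 4.10 ± 0.05 and 3.74 ± 0.30, above 33.1% and 24.8%. Levels of different probe sets are not on 1 scale, so this order is a rough guide. No root-cap or photosynthetic marker had a listed probe set, so cap tissue and shoot carry-over were not tested.

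Across the 9 arrays the median over all probe sets lay between 5.79 and 5.95 and the median over members between 12.44 and 12.54. The hybridization spike-in controls, averaged over 18 probe sets, lay between 10.16 and 10.29 on the triple-mutant arrays and between 9.83 and 10.07 on the other 6. Each genotype mean rests on 3 arrays, which limits the precision of every value. In bulk tissue, fewer cells of a type and less RNA per cell cannot be told apart.

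The brightest member was AT5G20290. Its wild-type arrays read 14.10, 14.12 and 14.09 on the log2 scale, its triple-mutant arrays 14.05, 14.08 and 14.08, and its quadruple-mutant arrays 14.11, 13.95 and 14.09. It was first in all 3 genotypes. AT2G19730 followed at a wild-type mean of 14.02, AT3G49910 at 13.98 and AT3G60245 at 13.94, and these too kept ranks 2, 3 and 4 in both mutants. The 20 brightest genes all had wild-type means of 13.48 or above, and none of them carried a gene name. Of these 20, 17 were also among the 20 brightest of the triple mutant and 18 among the 20 brightest of the quadruple mutant. Their log2 differences between the mutants ran from -0.04 to 0.07, and the smallest limma adjusted p among them was 0.927.

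Below this top the levels fell slowly. A wild-type mean of 13 or above was reached by 58 members, 87 lay between 12 and 13, and 55 lay under 12. The last 3 members were AT2G42310, AT4G15770 and AT4G16450, at 11.54, 11.53 and 11.53. The first 3 genes left out were AT1G64190, AT2G23090 and MSRB9, at 11.52, 11.52 and 11.51. These steps are smaller than the spread between replicates, for instance an SD of 0.29 for AT4G15770, so the order near the boundary is not resolved by 3 arrays.

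**Figure D1:**
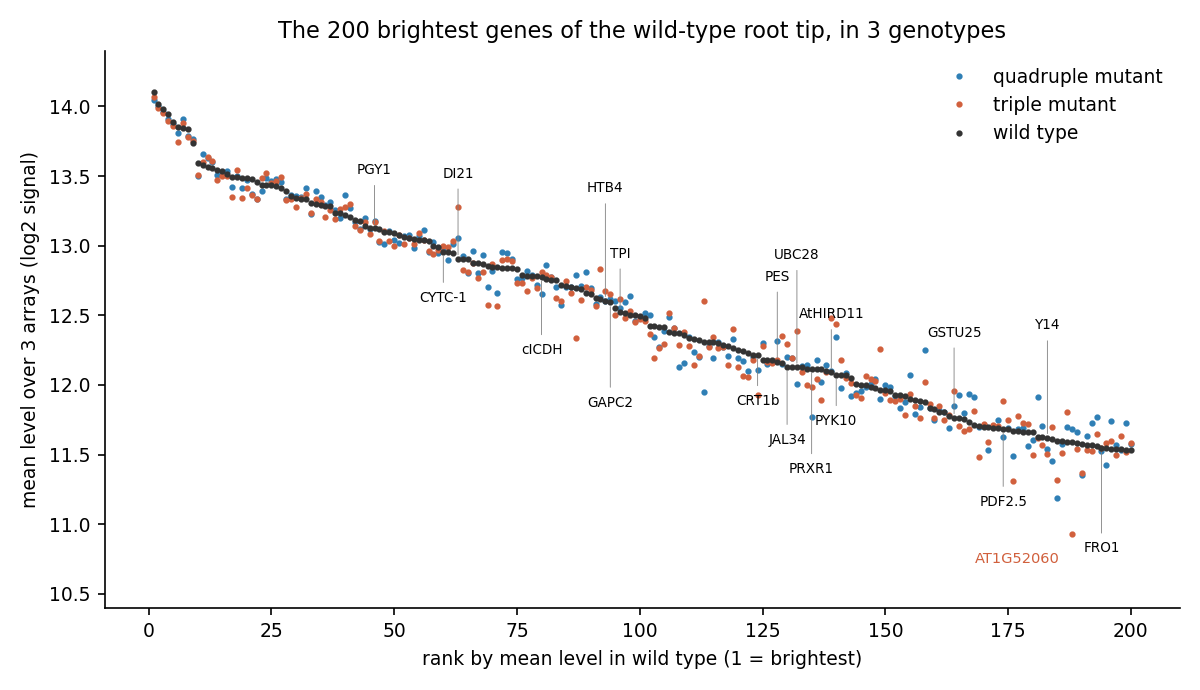
Mean log2 signal over 3 arrays (vertical axis) of each of the 200 members, placed by rank in wild type (horizontal axis), with points for wild type, the triple and the quadruple mutant. Mutant points follow the wild-type curve closely, and the point farthest below it is AT1G52060 in the triple mutant, at 10.93. Names mark the 18 named members.

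In the machinery that makes and folds proteins, no named member passed between the mutants. PGY1, also called PIGGYBACK1 and known as a protein of the large ribosomal subunit, was the brightest named member, at rank 46. It read 13.21, 13.14 and 13.03 in wild type, 13.17 on each of the 3 triple-mutant arrays, and 13.17, 13.24 and 13.13 in the quadruple mutant. PES, or PESCADILLO, a nucleolar protein of ribosome assembly, read 12.11, 12.20 and 12.19 in wild type, 12.04, 12.15 and 12.34 in the triple mutant and 12.29, 12.40 and 12.26 in the quadruple mutant. Its quadruple-mutant arrays lay above the wild-type arrays and overlapped those of the triple mutant, and the difference between the mutants was 0.14 (log2, SE 0.10, limma adjusted p = 0.731). CRT1b, a calreticulin that helps fold proteins in the endoplasmic reticulum, read 12.01, 12.01 and 12.63 in wild type, 11.89, 11.84 and 12.07 in the triple mutant and 12.22, 11.91 and 12.19 in the quadruple mutant. A single wild-type array stood above all the others.

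UBC28, a ubiquitin-conjugating enzyme, read 12.09, 11.99 and 12.30 in wild type, 12.35, 12.47 and 12.35 in the triple mutant, and 11.98, 11.84 and 12.21 in the quadruple mutant. Every triple-mutant array lay above every array of the other genotypes. The difference between the mutants was -0.38 (log2, quadruple minus triple, SE 0.12) and did not pass (limma adjusted p = 0.175).

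For chromatin and RNA, HTB4, a core histone, had wild-type, triple-mutant and quadruple-mutant means of 12.61 ± 0.17, 12.67 ± 0.09 and 12.60 ± 0.08 (SD, n = 3). Y14, a subunit of the complex deposited on spliced messenger RNA, lay near the lower edge of the list at 11.62 ± 0.13, 11.51 ± 0.11 and 11.54 ± 0.14. In both genes the genotypes overlapped.

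Energy metabolism was represented by 5 named genes, and none of them separated the 2 mutants. The glycolytic enzymes GAPC2, a cytosolic glyceraldehyde-3-phosphate dehydrogenase, and TPI, a triosephosphate isomerase, ranked 94 and 96. GAPC2 had means of 12.59 ± 0.09, 12.65 ± 0.02 and 12.62 ± 0.14 in wild type, triple and quadruple mutant, and TPI had 12.53 ± 0.05, 12.62 ± 0.03 and 12.55 ± 0.02 (SD, n = 3). CYTC-1, the respiratory electron carrier cytochrome c, read 12.96, 12.96 and 12.95 in wild type, against 12.96, 13.10 and 12.93 in the triple and 12.95, 13.09 and 12.87 in the quadruple mutant. FRO1, here FROSTBITE1, a subunit of respiratory complex I, stood at 11.55 ± 0.07, 11.55 ± 0.19 and 11.52 ± 0.15. The cytosolic isocitrate dehydrogenase cICDH, which makes NADPH, was the least even of the 5 in wild type: it read 12.54, 12.63 and 13.16 there, 12.70, 12.72 and 13.01 in the triple mutant and 12.57, 12.53 and 12.86 in the quadruple mutant, so that the array numbered 3 was the highest in each genotype.

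Among members with roles in redox chemistry and defence, PRXR1, a peroxidase, read 11.87, 12.05 and 12.43 in wild type, 11.83, 12.08 and 12.06 in the triple mutant, and 11.77, 11.55 and 11.99 in the quadruple mutant, with all groups overlapping. GSTU25, a glutathione S-transferase of the tau class, had means of 11.76 ± 0.29, 11.95 ± 0.16 and 11.85 ± 0.17 (SD, n = 3). PYK10, the beta-glucosidase stored in the ER bodies of roots, read 12.04, 11.88 and 12.30 in wild type, 12.30, 12.30 and 12.72 in the triple and 12.18, 12.39 and 12.47 in the quadruple mutant. The jacalin-related lectin JAL34 read 12.12, 11.84 and 12.43 in wild type, and its mutant means of 12.30 and 12.20 lay within that range. The defensin PDF2.5 had 11.99, 11.91 and 11.75 in the triple and 11.58, 11.74 and 11.55 in the quadruple mutant. Its 3 triple-mutant arrays lay above the 3 quadruple-mutant arrays, by a mean of 0.26 on the log2 scale, and this did not pass (SE 0.09, limma adjusted p = 0.279).

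Of the water-stress genes, AtHIRD11, a small dehydrin, read 12.26, 11.90 and 12.11 in wild type, 12.57, 12.46 and 12.42 in the triple mutant and 12.17, 11.99 and 12.13 in the quadruple mutant. The triple-mutant arrays lay above the other 6. Between the mutants AtHIRD11 differed by -0.38 (log2, quadruple minus triple, SE 0.11), which did not pass (limma adjusted p = 0.121). It passed in a fit that paired the arrays by replicate number as a block (limma adjusted p = 0.0342). DI21, annotated as drought-induced, read 12.90, 12.83 and 12.99 in wild type, 13.24, 13.37 and 13.22 in the triple and 12.97, 13.05 and 13.15 in the quadruple mutant, again with the triple-mutant arrays above the other 6. The difference between the mutants was -0.22 (log2, SE 0.09, limma adjusted p = 0.366). In UBC28, PDF2.5, AtHIRD11 and DI21, and in the called genes AT1G52060 and AT1G52070 described next, the triple-mutant arrays lay apart from the other 6. They also lay above the other 6 in AT1G78040, AT5G43460, AT5G19440 and AT5G58110, and below them in AT5G67510. The share of all probe sets with this pattern was not counted, so nothing is read from these examples. In the called gene AT2G43610 the triple-mutant arrays overlapped wild type, and the quadruple-mutant arrays lay below all others. All these differences use the triple-mutant arrays, on which the spike-in controls were also highest. The part of this in them was not tested.

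**Figure D2:**
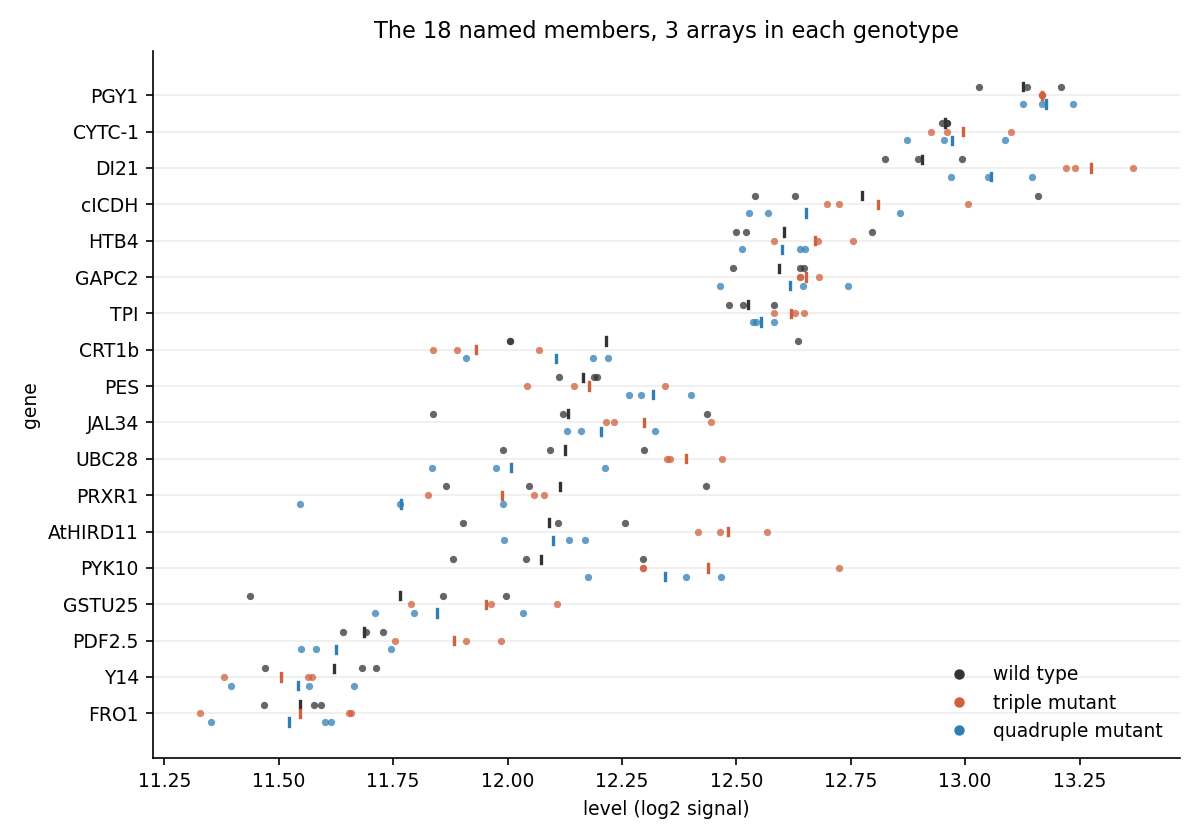
Log2 signal (horizontal axis) of the 18 named members on each of 9 arrays, with 1 point per array, a tick at each genotype mean and colours for wild type, triple and quadruple mutant. For AtHIRD11, DI21, UBC28 and PDF2.5 the triple-mutant points lie to the right of all the others, while for TPI, GAPC2 and CYTC-1 the 3 genotypes overlap.

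The quadruple and the triple mutant were compared, and neither mean in this difference includes an array that had chosen the members. The 2 groups differ by rev-6, by the choice of quadruple seedlings on their cotyledons and perhaps by the PHV or PHB allele. These cannot be told apart here. The difference was fitted with limma over all 22746 probe sets, with 1 mean per genotype and calls at an adjusted p under 0.05. The estimate of the spread also drew on the 3 wild-type arrays: in a fit of the 6 mutant arrays alone, and in a fit without wild-type replicate 1, 1 member was called. Of the 200 members 3 were called, or 1.5% against 2.22% of all probe sets. The next 200 genes in rank also held 3 calls. Of the called members, 2 were higher in the quadruple mutant, or 1% of members against 0.554% of all probe sets. The other was lower, or 0.5% against 1.66%. With the replicate block 4 were called, or 2% against 4.9%, the added one being AtHIRD11. At an unadjusted p under 0.05 there were 13 members, or 6.5% against 10.9% of all probe sets. None of the 18 named genes passed, with adjusted p from 0.121 to 0.993. The 3 called members were AT1G52060, AT1G52070 and AT2G43610.

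AT1G52060 read 11.55, 11.55 and 11.67 in wild type, 10.80, 10.98 and 11.02 in the triple mutant and 11.67, 11.69 and 11.69 in the quadruple mutant. The triple-mutant arrays lay far below the other 6, which lay close together. The quadruple mutant exceeded the triple mutant 1.68-fold (log2 difference 0.75, SE 0.09, limma adjusted p = 0.00174). The call held in each of the 9 fits without 1 array, with adjusted p up to 0.0141.

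AT1G52070 is the next gene along the chromosome in the RefSeq annotation of TAIR10.1, and it moved the same way. It read 12.68, 12.76 and 12.64 in wild type, 12.24, 12.38 and 12.39 in the triple mutant and 12.64, 12.87 and 12.87 in the quadruple mutant. Again the triple-mutant arrays were the lowest, with no overlap. The quadruple mutant again stood higher, by 1.37-fold (log2 difference 0.45, SE 0.09, limma adjusted p = 0.0365). This call held without quadruple-mutant replicate 1 or wild-type replicates 2 or 3 and was lost in the other 6 fits without 1 array, where adjusted p reached 0.164 without triple-mutant replicate 1. Whether the probes of either gene also bind transcripts of the other was not tested.

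AT2G43610 went the other way. Its arrays read 12.20, 12.23 and 12.50 in wild type, 12.42, 12.69 and 12.70 in the triple and 12.10, 11.68 and 12.06 in the quadruple mutant, so that the quadruple-mutant arrays were the lowest of all. The level was 1.57-fold lower there than in the triple mutant (log2 difference -0.65, SE 0.14, limma adjusted p = 0.0395). The call held without wild-type replicate 3 and was lost in the other 8 fits without 1 array, where adjusted p reached 0.148 without triple-mutant replicate 2. In a fit of the 6 mutant arrays alone, AT1G52060 was the 1 member to pass, while AT1G52070 and AT2G43610 stood just outside at adjusted p = 0.0563 and 0.0558.

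**Figure D3:**
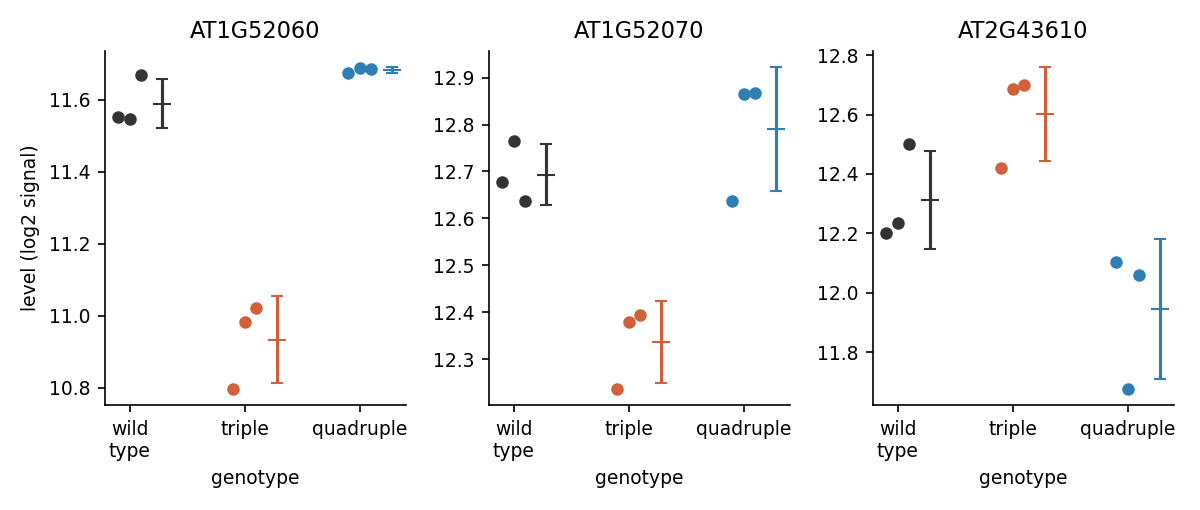
Log2 signal (vertical axis, scaled separately in each panel) of the 3 members past the threshold between the mutants, by genotype, with 1 point per array and the mean ± SD of 3 arrays beside the points. AT1G52060 and AT1G52070 are lowest in the triple mutant, and AT2G43610 is highest there and lowest in the quadruple mutant.

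Most members differed little between the mutants, and the counts here include the called genes. The log2 difference was under 0.2 in either direction for 180 of 200 members, or 90%, against 80.3% of all probe sets. Of the next 200 genes in rank it was under 0.2 for 175, so much of this is shared with other bright genes. The difference exceeded 0.5 in 2 members, or 1% against 4.44% of all probe sets, and these were the called AT1G52060 and AT2G43610. Among the next 200 genes it did so in 3. The median size of the difference was 0.06 for members and 0.09 over all probe sets. The 3 triple-mutant and the 3 quadruple-mutant arrays did not overlap for 24 members, or 12% against 16.5% of all probe sets. They lay higher in the quadruple mutant for 9 members, or 4.5% against 8.93%, and lower for 15, or 7.5% against 7.61%. After the called genes and those already named, the widest differences were in AT5G19440, at -0.36 (SE 0.11, limma adjusted p = 0.158), AT1G50060, at 0.29 (SE 0.18), and AT5G23830, at 0.25 (SE 0.14). The median signed difference was 0.02 for members and 0.03 over all probe sets.

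**Figure D4:**
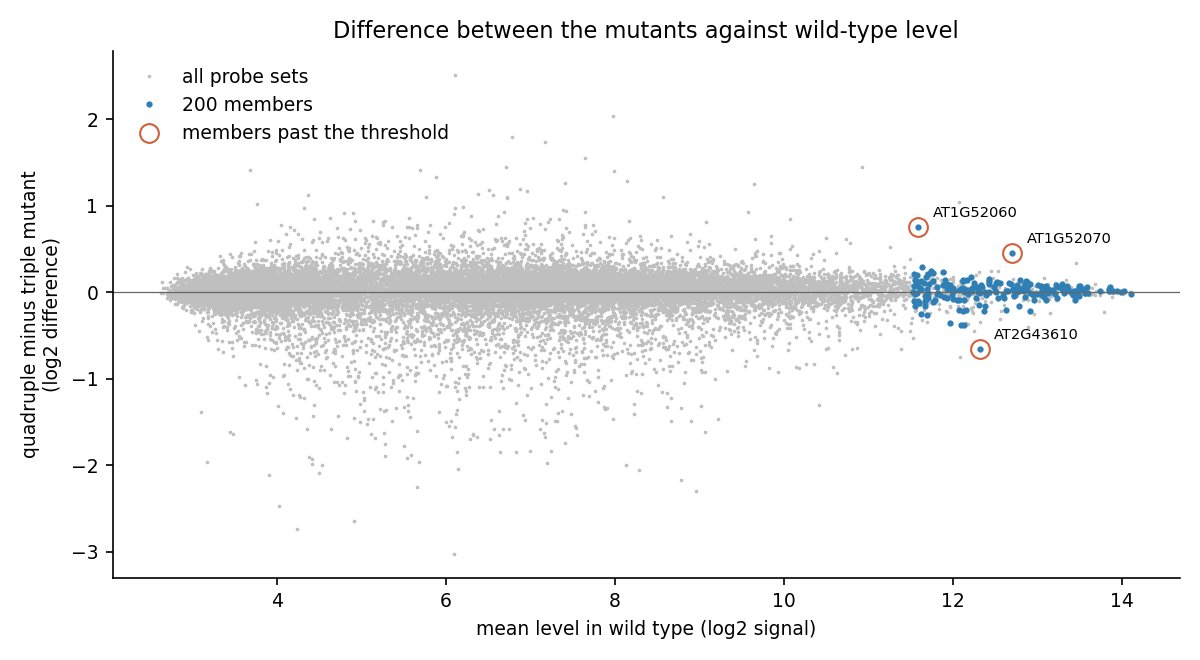
Log2 difference between the quadruple and the triple mutant (vertical axis) against mean log2 signal in wild type (horizontal axis), with grey points for all probe sets, blue points for the 200 members and rings around the 3 members past the threshold. Members sit close to the zero line, and AT1G52060, AT1G52070 and AT2G43610 stand away from it.

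The members were also among the more evenly measured genes. The SD between replicates, pooled over both mutants and so free of the arrays that chose the list, had a median of 0.09 for members, 0.13 for the next 200 genes in rank and 0.12 over all probe sets. Among 13 bands of 200 genes whose levels all lay at 8 or above, the members had the smallest median SD, and the other 12 bands lay between 0.118 and 0.141. In 6 of all 66 bands the SD was smaller still, and there no gene exceeded a log2 signal of 3.33. The median size of the difference between the mutants was 0.059 in members and 0.077 to 0.107 in the other bright bands, and it was smaller in 10 bands, where no gene exceeded 3.59. Some values repeated exactly between arrays. PGY1 read 13.1677 on all 3 triple-mutant arrays and on quadruple-mutant replicate 1, and AT5G15200 read 13.7438 on replicate 1 of all 3 genotypes. These are descriptions without a test. How far array signals near the top of their range are compressed, or made alike by the normalization between arrays, was not tested.

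**Figure D5:**
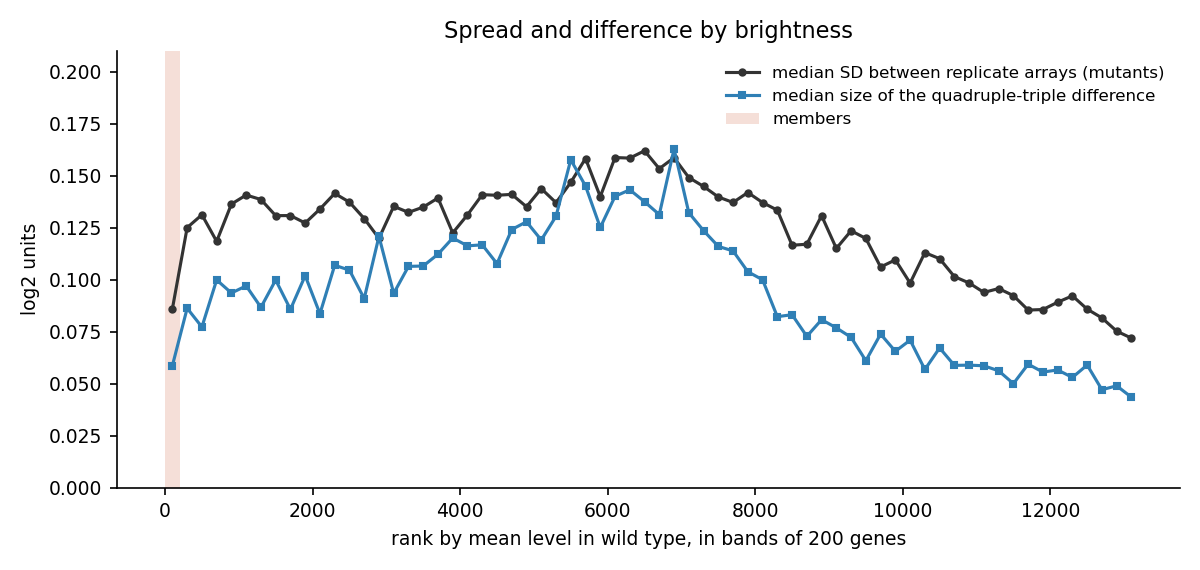
Median SD between replicate arrays of the mutants and median size of the difference between the mutants (vertical axis, log2 units), for bands of 200 genes ordered by wild-type level (horizontal axis, brightest at the left, members shaded). Both values are lower in the members, at 0.086 and 0.059, than in the bands just below them, and fall again among the dimmest genes.

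Within the list the spread differed by gene. The steadiest members about their genotype means were AT5G15200, AT3G02560 and AT5G22440, with residual SDs of 0.019, 0.019 and 0.024 on the log2 scale. AT5G15200 ran only from 13.73 to 13.80 over all 9 arrays. The least steady were AT1G07070, AT1G50060 and AT2G28790, at 0.29, 0.26 and 0.24. AT1G07070 read 11.81, 11.84 and 11.37 in wild type, 11.52, 11.49 and 10.92 in the triple and 11.49, 11.77 and 11.21 in the quadruple mutant, so the array numbered 3 was the lowest in every genotype.

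That pattern was shared. For 75 members, or 37.5%, the array numbered 3 was the lowest of its genotype in all 3 genotypes, against 13.4% of all probe sets. It was the highest in all 3 for 9 members, or 4.5% against 12.3%. The 9 included cICDH, PYK10 and JAL34. Over members, the deviations of the arrays numbered 3 from their genotype means were correlated. The values were 0.65 between triple mutant and wild type, 0.64 between quadruple mutant and wild type and 0.68 between the mutants. They are a description over 200 genes measured on the same arrays. In the same order, the arrays numbered 1 gave 0.60, -0.12 and 0.04, and those numbered 2 gave 0.55, 0.46 and 0.29. The same arrays had the smallest gap between the 3′ and 5′ control probe sets of GAPDH in each genotype, 1.97 against 2.67 and 2.81 in wild type, 1.59 against 2.34 and 2.30 in the triple and 1.98 against 2.5 and 3.27 in the quadruple mutant (log2 units). The gap for actin was also the smallest on these arrays, at 4.14, 5.22 and 5.11. The gap for ubiquitin was not: it was the largest of its genotype there in the triple and quadruple mutant, at 1.42 and 1.41, and in the middle in wild type, at 1.08. The part of these differences in the members' values was not tested. Without the 3 arrays numbered 3, AT1G52060 was the 1 member called between the mutants.

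Differences from wild type are a description and test no member, because the wild-type arrays chose the list. The counts of calls are given beside the background only. In the triple mutant, 1 member was called by the same fit, or 0.5% against 1.73% of all probe sets. With the replicate block 4 were called, or 2% against 5.06%. In the quadruple mutant, 0 were called, against 0.044%, and 0 with the block, against 0.295%. There, 4 members had an unadjusted p under 0.05, or 2% against 9.39%. Nothing is read from these counts. The log2 difference from wild type was under 0.2 either way for 181 members in the triple mutant, or 90.5% against 73.8% of all probe sets. In the quadruple mutant this held for 189 members, or 94.5% against 78%.

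The medians of the members' differences from wild type were -0.02 for the triple and 0.00 for the quadruple mutant, within 0.01 of the medians over all probe sets. After median centring of the arrays the medians over all probe sets moved to -0.12 and -0.08, and those of the members moved with them. Signed counts follow that choice, with 85 members positive in the triple mutant as deposited and 18 after centring, so no direction is given for the list.

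Among single members, the highest differences in the triple mutant from wild type were AtHIRD11 at 0.39, DI21 and PYK10 at 0.37, AT2G43610 at 0.29 and AT5G19440 at 0.29. The lowest were AT1G52060 at -0.65, AT1G07070 and AT1G52070 at -0.36, AT5G67510 at -0.29 and CRT1b at -0.28. The wild-type and triple-mutant arrays of AT1G07070, CRT1b, PYK10 and AT2G43610 overlapped. In the quadruple mutant, AT5G54370 stood highest, with 11.76, 11.97 and 11.90 in wild type and 12.26, 12.11 and 12.39 in the quadruple mutant, a difference of 0.37. AT1G50060 (0.29), PYK10 (0.27), AT3G18190 (0.20) and AT5G23830 (0.20) followed. AT4G02450 stood lowest, with 11.75, 11.66 and 11.38 against 11.31, 11.11 and 11.14, a difference of -0.41, ahead of AT2G43610 (-0.36), PRXR1 (-0.35), AT3G15450 (-0.24) and AT4G17520 (-0.22).

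The composition of the top of the ranking was nearly the same in all genotypes. When the 200 brightest genes were chosen from the triple-mutant arrays instead, 190 members were among them, and from the quadruple-mutant arrays 193. In single arrays the number lay between 189 and 194 in wild type, 183 and 190 in the triple and 189 and 193 in the quadruple mutant. The wild-type numbers are raised by the choice of the list on those arrays and are no baseline for the mutants. In all, 169 members were inside on every one of the 9 arrays. The members that fell outside in a mutant had wild-type ranks of 169 or more. Those outside in both were AT1G07070, AT4G02450 and AT4G17520, and the farthest moves were AT1G52060 to rank 335 in the triple mutant and AT4G02450 to rank 274 in the quadruple mutant.

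Most genes that took their places came from just under the boundary. Of 10 that entered in the triple mutant and 7 in the quadruple mutant, 4 entered in both: PRH75, an RNA helicase, AT1G64190, AT2G23090 and AT3G12760. COR47, a dehydrin, entered in the quadruple mutant, from rank 222 to 189. The exception to the short moves was QQS, a gene without known relatives that acts on leaf starch content, which stood at rank 7585 in wild type (mean 4.54) and 170 in the triple mutant (mean 11.76).

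Some neighbouring genes were both on the list. Of 5198 pairs of adjacent genes with both represented, 162 held at least 1 member and 4 held 2. The number to be found in a random list of this size was not computed. Besides AT1G52060 with AT1G52070, the pairs of members were AT2G19730 with AT2G19740 and the run of AT2G27710, AT2G27720 and AT2G27730. AT2G19730 and AT2G19740 differed widely in level, at 14.02 and 11.93 in wild type, though levels of different probe sets are not on 1 scale. Between the mutants the genes of that pair differed by 0.01 and 0.03 and those of the run by 0.06, -0.03 and 0.0020 (log2), all within their standard errors, unlike AT1G52060 and AT1G52070.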

How the data were processed

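Values are log2 signals as the authors deposited them, for 9 one-colour Affymetrix ATH1 arrays. Expression Console, RMA and limma are named, per the submitters' processing notes, without versions in the sources used here. RMA normalizes between arrays, so differences are relative to other transcripts. The labels' protocols give 250 ng of RNA per array.

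The 64 control probe sets were left out, leaving 22746. Of these 13513 have 1 gene in the platform annotation, 503 several and 8730 are not listed. Symbols came through the Entrez identifier from RefSeq (TAIR10.1), and 77 found no match. No promoter or protein sequence was used. Functional groups by annotation words placed 7 members, and 11 were placed by hand from their names.

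Fits used limma 3.58.1 in R 4.3.3, on all 9 arrays with genotype means, empirical Bayes moderation, Benjamini-Hochberg adjustment over all probe sets and calls at adjusted p under 0.05; the code was tested on simulated data. Same-numbered arrays were checked for pairing over all probe sets. Their deviations correlated at 0.217 to 0.515 between the mutants, 0.273 to 0.408 between triple mutant and wild type and 0.04 to 0.36 between quadruple mutant and wild type. Arrays with different numbers were not compared, so these values cannot decide whether replicate numbers pair the arrays. The fits with a replicate block assume that they do. Named genes were the 20 brightest (in detail or as a range), members called between the mutants, the 5 highest and lowest differences from wild type, the 3 largest and smallest residual SDs, the 3 genes on either side of the boundary, members that left the list in both mutants, and the leading members of groups; the other named members, neighbours, genes that entered and other differences between the mutants were added after their values were seen. The members and lists were chosen with earlier results of these data known.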

Additional observations from a re-analysis of the deposited data

How the results depend on the processing

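Between the mutants, 3 members were called, and the count was 7 with array weights, 1 in the fit of the 6 arrays compared, 1 without the 3 arrays numbered 3 (chosen after seeing the data), 1 among the 100 brightest genes and 6 among the 400 brightest. It lay between 1 and 3 over the 9 fits without 1 array, at 1 without quadruple-mutant replicates 2 or 3, any triple-mutant replicate or wild-type replicate 1. With the replicate block it was 4, and it was 2 or 3 under a variance trend with robust estimation, a minimum mean of 5, median centring, quantile normalization and members chosen over all 9 arrays. The count for the triple mutant against wild type was 1, and 4 with the replicate block, 2 with the variance trend and robust estimation, 2 with members chosen over all 9 arrays, 0 among the 100 and 4 among the 400 brightest genes; it was 1 in each fit without 1 array. The quadruple mutant against wild type gave 0 throughout. AT1G52060 kept its direction and its call between the mutants in every setting run, with log2 differences from 0.68 to 0.82. AT1G52070 and AT2G43610 kept their directions, with differences from 0.40 to 0.53 and from -0.75 to -0.50; AT2G43610 also lost its call under quantile normalization (adjusted p = 0.0543). The causes of these losses were not tested. The shares of members among the 200 brightest of the triple and quadruple mutant, 95% and 96.5%, lay between 93.5% and 98% in every setting run. The replicate block changed no other call between the mutants than that of AtHIRD11. The number of arrays limits these tests.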
